A study of Caenorhabditis elegans with 2 samples.

Results

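The genes described here are 10 Caenorhabditis elegans genes for maternal RNA-binding regulators: oma-1, oma-2, mex-5, mex-6, pos-1, pie-1, spn-4, mex-3, gld-1 and puf-5. They were taken by name, as a list drawn up with earlier results of these data known, and all 10 were found among the 19973 protein-coding and 46890 nuclear genes of the annotation. The study mapped where the protein of Y79H2A.3 lies on DNA, by chromatin immunoprecipitation and sequencing of whole young adults aged 63 hours. Both samples belong to 1 group: worms of strain RW12273, in which CRISPR placed a TY1, EGFP and 3xFLAG tag in Y79H2A.3 on chromosome III, synchronised by starving the hatched L1 larvae after bleaching. The labels describe the antibody both as one against GFP and, in another field, by the name Y79H2A.3. No untagged worm and no control precipitation was analysed here, and since whole animals were used the tissue in which a site was occupied was not resolved.

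In the worm germline, many mRNAs are made during oogenesis, stored, and translated or destroyed after fertilisation, while the early embryo is largely silent in transcription. RNA-binding proteins carry out this control, mostly by binding the 3' UTRs of the stored mRNAs. OMA-1 and OMA-2, MEX-5 and MEX-6, POS-1 and PIE-1 have CCCH zinc fingers, SPN-4 has an RNA recognition motif, MEX-3 and GLD-1 have KH domains, and PUF-5 is of the Pumilio family. Their own genes are transcribed in the germline.

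The data are peak lists, each from replicate 1, replicate 2, the pooled reads, or the comparison of the replicates. Each of these was deposited as a short thresholded list and a long ranked list. The thresholded list of the comparison, called conservative by the authors, held 1021 peaks, the pooled one 934, that of replicate 1 442 and that of replicate 2 393. The irreproducible discovery rate (IDR) scores how well a peak's rank repeats between lists, and no conservative peak had a −log10 IDR under 2.00 in the comparison. Ranked lists held 77086 (comparison), 60926 (pooled), 38519 (replicate 1) and 45724 (replicate 2) peaks, most of them low. Height is given as the deposited signal value, which has no stated unit, and read depth is unknown. A gene region is the gene with 2000 bp upstream of its start, and a gene has a peak when a summit lies there. With 2 samples of 1 group there is nothing to test between groups, so all that follows is description.

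Peaks that passed the threshold lay at 3 to 6 of the 10 genes, depending on the list. In the conservative list 3 members had a summit in the gene region (pos-1, spn-4 and puf-5), against 5.29% of all coding genes. In the pooled list there were 6 (mex-5, mex-3 and gld-1 in addition), against 4.84% of coding genes. Replicate 1 gave 4 members (pos-1, spn-4, puf-5 and pie-1), against 2.46%, and replicate 2 gave 3 (pos-1, spn-4 and puf-5), against 2.2%. No thresholded list held a summit in the region of oma-1, oma-2 or mex-6. The gene regions were of ordinary size, with a median of 4217 bp for the members and 4027 bp for all coding genes. In the ranked lists a summit in the gene region is the rule: 9 members in the comparison, against 87.5% of coding genes, 10 in the pooled list, against 83.4%, 10 in replicate 1, against 77.5%, and 8 in replicate 2, against 80.8%. The highest signal value per gene in the ranked pooled list had a median of 64.6 over the 10 members, and of 37.0 over the 16667 coding genes with a peak.

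**Figure D1:**
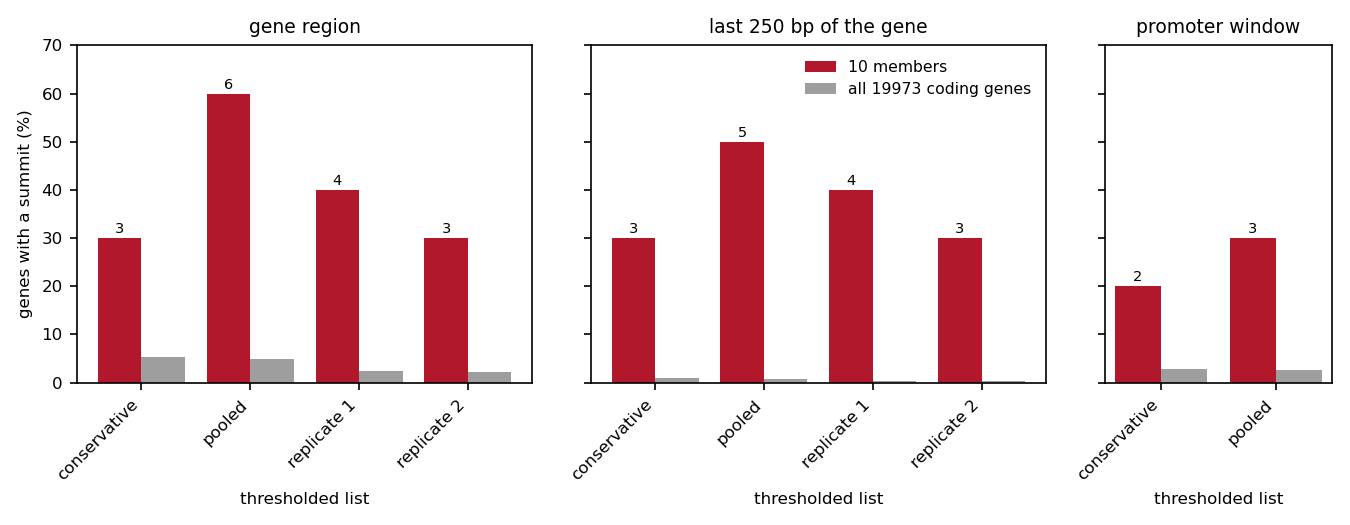
Share of genes with a summit (y axis, %) in the gene region, in the last 250 bp of the gene and in the promoter window, for the thresholded lists on the x axis. Red bars are the 10 members, with their count above, and grey bars all 19973 coding genes; in the last 250 bp, 3 to 5 members had a summit.

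In 7 of the 10 genes the highest peak of the ranked pooled list lay in the last 250 bp of the gene. The exceptions by the position of the summit were oma-1, mex-5 and pie-1. For pos-1, which encodes a posterior regulator of translation in the early embryo, the highest peak (chromosome V, 8415155 to 8415291, ce11) had its summit in the 3' UTR, 39 bp before the annotated end of the gene. Its signal value was 170, rank 65 of the 1021 conservative peaks, with 58.0 in replicate 1 and 107 in replicate 2. Only 0.376% of coding genes had a conservative peak as high anywhere in their region. In both replicates this peak passed the threshold on its own.

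The puf-5 gene, for a Pumilio-family repressor of translation acting in late oogenesis, had a single conservative peak (chromosome II, 8577467 to 8577762). This peak again lay in the 3' UTR, with its summit 172 bp before the gene end. Its signal value was 133, rank 129, and the replicates were nearly equal, at 65.2 in replicate 1 and 62.6 in replicate 2. The spn-4 gene, whose product is needed for spindle orientation and for translational control in the embryo, had its highest peak 60 bp before the gene end (chromosome V, 6783099 to 6783394). Its signal value was 111, rank 224, with 41.4 in replicate 1 and 69.8 in replicate 2. All 3 conservative members thus had their highest conservative peak in the 3' UTR, and each of these peaks was found in both single-replicate lists. In replicate 1, however, the upstream peak of pos-1 was the higher, at 60.5 against 58.0. Among the 1056 coding genes with a conservative peak, the tallest lay in the last 250 bp in 154 (14.6%), out of 167 with a summit there.

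The same place was marked in other members at lower heights. The pie-1 gene, whose product represses transcription in germline blastomeres, had a conservative peak of 104.5 (chromosome III, 12429077 to 12429372, rank 264) whose interval covers its 3' UTR but whose summit lies 30 bp past the gene end. By the summit rule it is no peak of pie-1, and its summit lies inside snr-6, a gene of the opposite strand. In replicate 1 the summit lay inside pie-1, 44 bp before its end, with a signal value of 63.9. In the ranked list of replicate 2 it lay past that end with 36.4. The gld-1 gene, for a repressor of translation in meiotic germ cells, had a pooled peak of 71.0 with its summit 129 bp before the end (chromosome I, 7697945 to 7698240). Its −log10 IDR in the comparison of the replicates was 1.91, just under the threshold.

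The mex-3 gene, for a KH-domain repressor of pal-1 translation, had a pooled peak of 57.9, with its summit 75 bp before the end (chromosome I, 134047 to 134342). In the comparison its −log10 IDR was only 0.441, with 31.9 in the first replicate column and 16.8 in the second. The ranked list of replicate 2 also held a peak of 33.1 that overlaps the pooled one, with its summit in the 3' UTR 254 bp before the end. The second column does not hold that value. The highest peak of mex-6, one of the redundant anterior polarity genes, lay 75 bp before its end with 58.3. It passed no threshold, with a −log10 IDR of 1.58 in the comparison and 26.6 and 32.4 in the replicate columns. For oma-2 the gene-end peak had 30.9 in the ranked pooled list, and 58.6% of coding genes had one as high somewhere in their region. At mex-5 no summit of that list lay in the last 250 bp, and one of 40.0 lay 39 bp past the gene end. This one lies 174 bp downstream of a start of W02A2.8, a gene of the opposite strand.

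**Figure D2:**
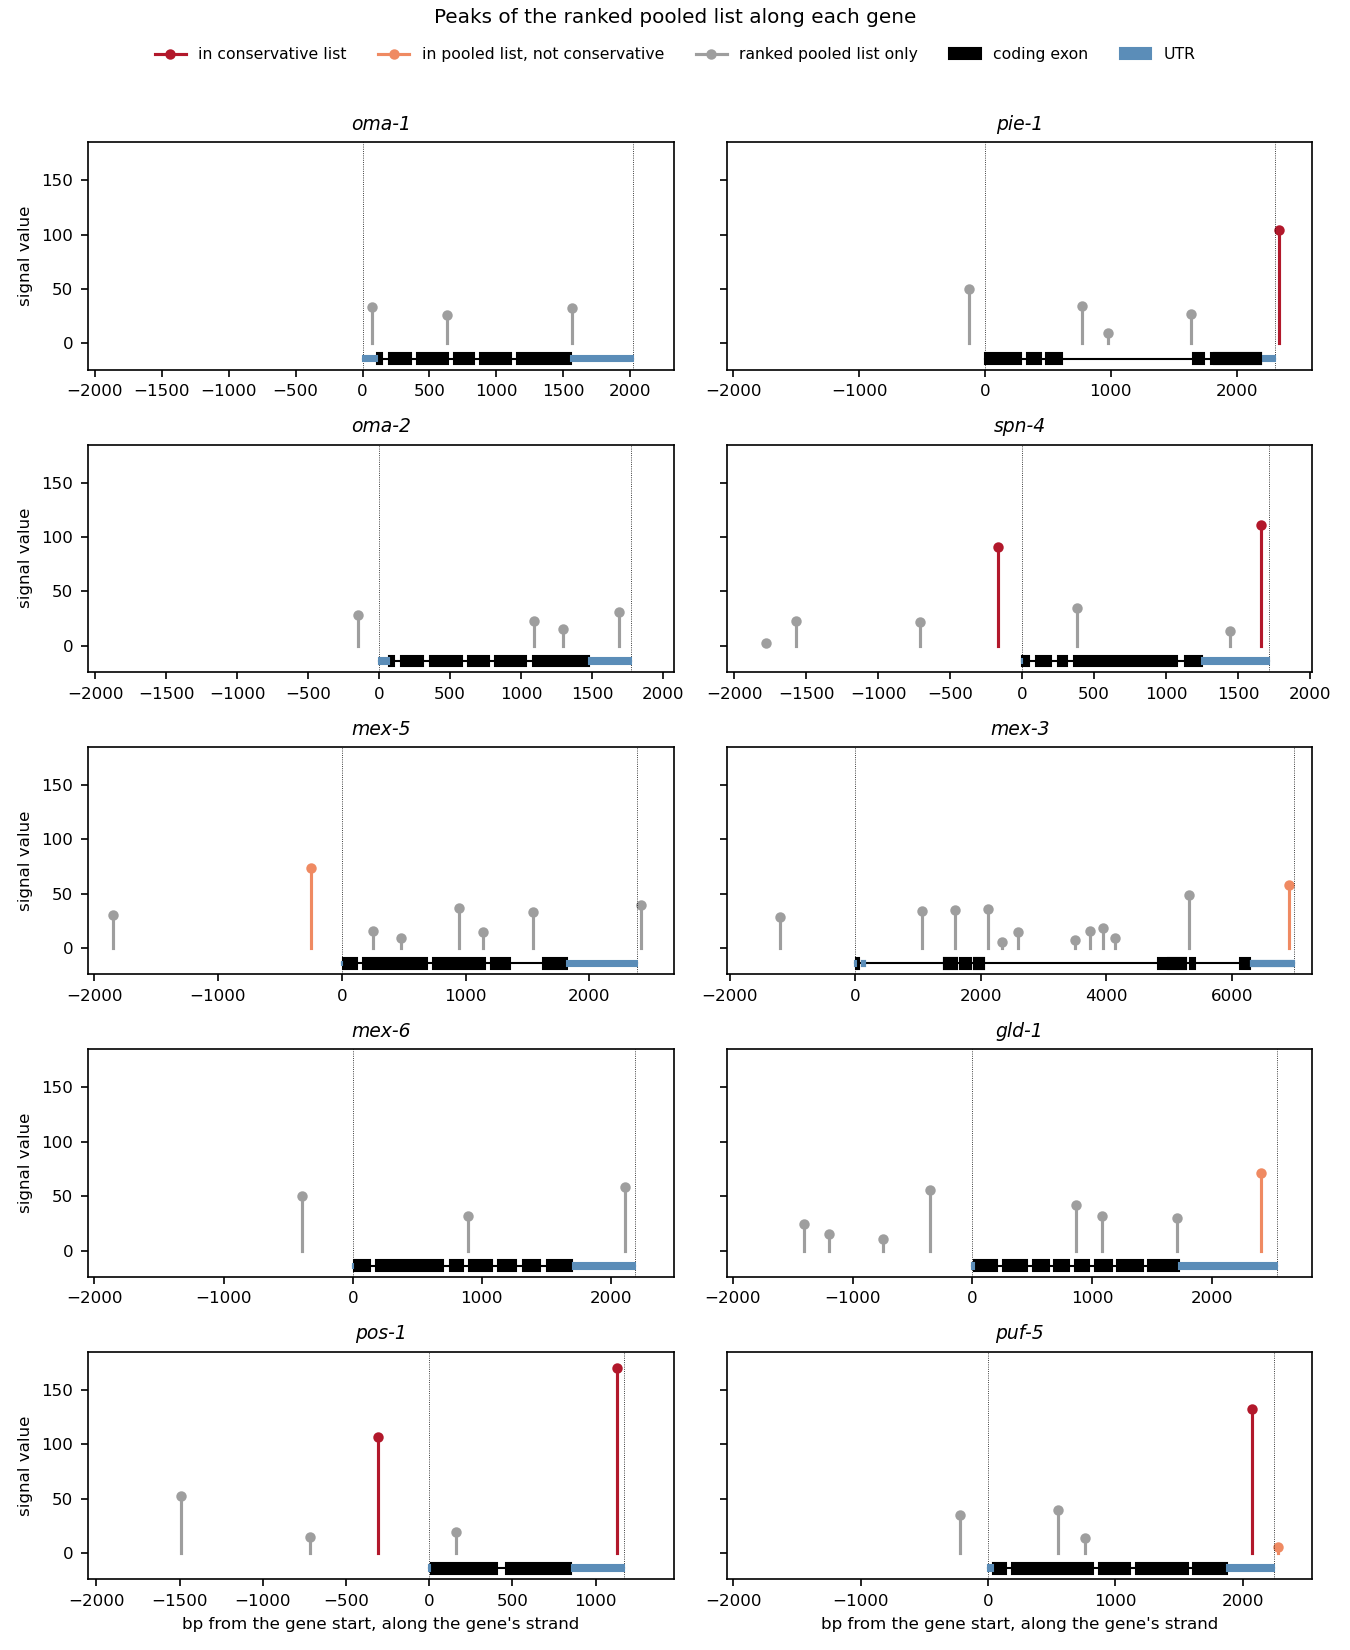
Each panel shows 1 gene, with the distance from its start in bp on the x axis and the signal value of each peak of the ranked pooled list on the y axis. Coding exons are black and UTRs blue; red stems are peaks also in the conservative list, orange ones peaks in the pooled list only. The tallest stems of pos-1 (170), puf-5 (133), spn-4 (111) and gld-1 (71.0) stand over the 3' UTR, and that of pie-1 (104.5) just past it.

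Counted over the last 250 bp of the gene, 3 members had a conservative summit, against 0.836% of coding genes, and 5 had a pooled summit, against 0.761%. The replicate 1 list had 4 members, against 0.355% of coding genes, and the replicate 2 list 3, against 0.33%. In the ranked lists 7 members had a summit there in the comparison, against 21.2%, and 7 in the pooled list, against 17.5%. Among genes with a pooled peak anywhere in the region, the tallest lay in the last 250 bp in 5 of 6 members, and in 14.3% of the 966 coding genes. In the ranked pooled list this held for 7 of 10 members, and for 7.09% of 16667 coding genes. This window was chosen after the positions of the members' peaks had been seen, so these shares describe the pattern and are no test of it.

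Gene ends often lie close to another gene, and some of these peaks are shared with a neighbouring start. The summit at the end of mex-3 lies 142 bp upstream of F53G12.4, that of gld-1 208 bp upstream of T23G11.10, that of puf-5 434 bp upstream of F54C9.9 and that of oma-2 282 bp upstream of vars-1, all on the same strand. That of mex-6 lies 747 bp upstream of a pseudogene, WBGene00005041. In contrast, pos-1, spn-4 and pie-1 end against a gene of the opposite strand (lmd-3, ZC404.15 and snr-6). The annotated gap is −23 bp from pie-1 to snr-6 and −7 bp from spn-4 to ZC404.15, so the genes of each pair overlap. The conservative summit past the end of pie-1 therefore lies inside snr-6, near the end of that gene. None of the summits at the ends of pos-1, spn-4 and pie-1 lay in the start window of another gene. That window runs from 1000 bp upstream to 200 bp downstream of a transcript start, along the other gene's strand. Over all coding genes with a conservative summit in the last 250 bp, 45 of 167 (26.9%) had it in the start window of another gene. Of the 3 members with such a summit, only puf-5 did. With a pooled summit there, 42 of 152 coding genes (27.6%) did, and of the 5 members puf-5, mex-3 and gld-1. The gene-end summits of oma-2 and mex-6 passed no threshold, and no such share was counted for the ranked lists. Whether the shared peaks belong to the end of the member or to the start of its neighbour cannot be told from these lists.

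**Figure D3:**
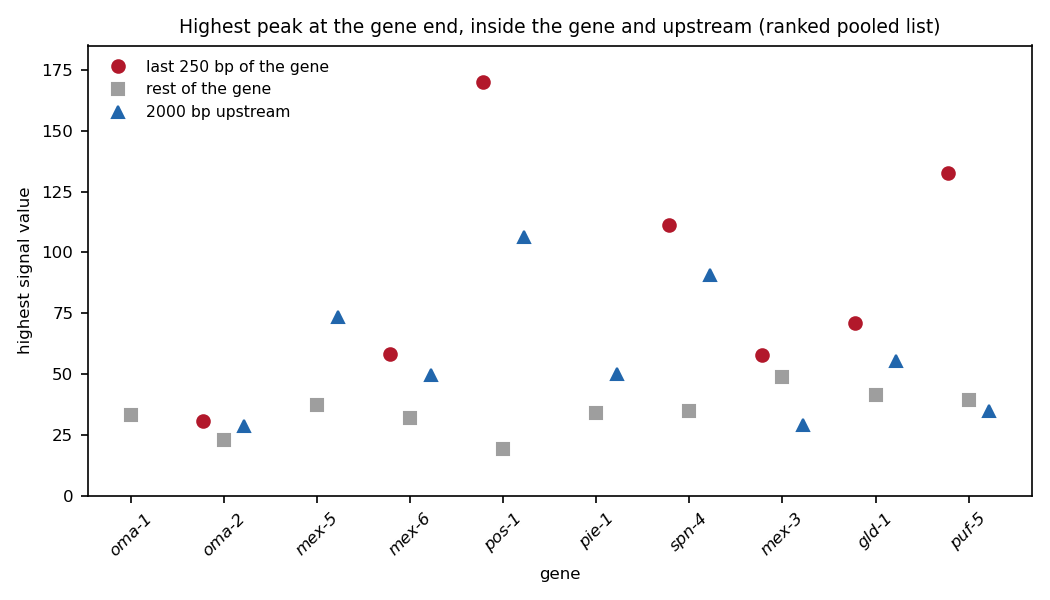
Highest signal value (y axis) in the ranked pooled list for each gene (x axis), in the last 250 bp of the gene (red circles), the rest of the gene (grey squares) and the 2000 bp upstream (blue triangles). In each of the 7 genes with a red circle it is the highest of the symbols, from 30.9 in oma-2 to 170 in pos-1; the pie-1 peak past the gene end is not plotted.

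The 7 genes with a gene-end summit in the ranked pooled list all had a lower highest peak upstream, which follows from their tallest peak lying at the end. Of the 3501 coding genes with a gene-end summit in that list, 1182 had the tallest peak of their region there. In the promoter window (1000 bp upstream to 200 bp downstream of any transcript start) 2 members had a conservative summit, against 2.88% of coding genes, and 3 had a pooled one, against 2.6%. These were pos-1 and spn-4 in both lists, and mex-5 in the pooled list. The pos-1 peak (chromosome V, 8413630 to 8413925) had a signal value of 106 with its summit 308 bp upstream of the start, and 60.5 in replicate 1 and 53.3 in replicate 2, where it passed no threshold on its own. It lies between divergent genes, 296 bp upstream of vha-18, a vacuolar ATPase subunit gene. The spn-4 peak (chromosome V, 6784922 to 6785217) had 90.7 with its summit 167 bp upstream, and 38.0 in replicate 1 and 55.4 in replicate 2. It too lies between divergent genes, 381 bp upstream of spe-39, a vesicle trafficking gene. The mex-5 peak (chromosome IV, 13353326 to 13353621) had 73.4 with its summit 249 bp upstream of mex-5 and 281 bp upstream of the divergent rec-8, a meiotic cohesin gene.

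Peaks that passed no threshold lay upstream of gld-1 (55.5, at 355 bp), pie-1 (50.1, at 129 bp) and mex-6 (49.8, at 390 bp) in the ranked pooled list. The gld-1 peak had a −log10 IDR of 1.64 in the comparison, with 29.1 in the first replicate column and 30.7 in the second. The pie-1 peak was less even, with 16.3 in the first column and 38.8 in the second, and the mex-6 peak had 21.6 and 27.2. The highest upstream peaks of puf-5 (34.7), mex-3 (28.9) and oma-2 (28.8) were lower still. Sequence is given around the highest upstream summits of 5 of the 6 genes with such a peak of 49.8 or more, gld-1 being left out. Each is 101 bases long, centred on the summit, taken from the RefSeq copy of WBcel235 (the assembly known as ce11) and written along the strand of the named gene. Capitals mark a match to CGCGCC on either strand, a 6-mer taken from earlier results on these same peaks, so that its share below is no independent evidence. None of the windows overlaps an annotated exon.
pos-1, chrV:8413728-8413828, plus strand: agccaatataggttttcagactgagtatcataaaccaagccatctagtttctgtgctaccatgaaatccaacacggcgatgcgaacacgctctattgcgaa
spn-4, chrV:6785020-6785120, minus strand: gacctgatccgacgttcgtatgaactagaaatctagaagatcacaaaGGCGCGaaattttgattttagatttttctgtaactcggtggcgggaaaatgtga
mex-5, chrIV:13353424-13353524, plus strand: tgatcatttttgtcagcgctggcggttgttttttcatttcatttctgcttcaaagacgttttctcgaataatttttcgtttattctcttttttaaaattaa
pie-1, chrIII:12426714-12426814, plus strand: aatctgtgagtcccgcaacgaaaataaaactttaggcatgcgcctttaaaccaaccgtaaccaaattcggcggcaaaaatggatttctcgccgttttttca
mex-6, chrII:9523734-9523834, plus strand: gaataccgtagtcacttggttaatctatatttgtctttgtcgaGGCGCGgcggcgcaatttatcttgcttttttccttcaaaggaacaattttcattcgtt

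CGCGCC occurred in the upstream windows of spn-4 and mex-6, that is in 2 of the 9 members with an upstream summit in the ranked pooled list. It was in 106 of the 1021 windows of the same length at conservative summits (10.4%). Of such windows centred 250 bp upstream of the 19972 coding gene starts scanned, 1.77% held it. None of the 7 gene-end windows held it. The gene-end windows of the members had a median GC content of 33.7% and a median of 2 CpG dinucleotides, and their upstream windows 39.6% and 5, against 43.6% and 5 at all conservative summits. A match is a description of the letters only. All the 31-mers of the gene-end peaks occurred once in the nuclear genome, as did 83.5% of those in the pos-1 upstream peak and 97.4% or more of those in the other upstream peaks.

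The oma genes, redundant regulators of oocyte maturation, had the lowest values of the 10 in the ranked pooled list. In the ranked pooled list the highest at oma-1 had 33.1, in the 5' UTR 73 bp past the start, and 52.2% of coding genes had a peak as high. In the comparison list its highest peak was another one, 297 bp upstream, with 40.0 (30.6 in the first replicate column and 12.7 in the second). The ranked pooled list held no summit over the 6884 bp before that of the 5' UTR peak, and 1707 of its 60920 runs were at least as long. The ranked list of replicate 2 was empty over 13822 bp there, with 698 of 45718 runs at least as long. The upstream peak of oma-1 lies inside both runs. Why these lists are empty there was not tested. At oma-2 the highest upstream peak had 28.8, at 151 bp, and the ranked list of replicate 2 held no summit in its region. The comparison list nevertheless gave the gene-end peak of oma-2 a value in both replicate columns, 8.88 in the first and 27.1 in the second. A peak missing from a single-replicate list can thus still have a replicate value. The 8.88 is that of a replicate 1 peak with its summit 44 bp past the gene end, 153 bp upstream of vars-1. By the summit rule that one is no peak of oma-2. In the ranked pooled list both genes were thus below the median of 37.0 for coding genes with a peak. In the other ranked lists oma-1 was above that median: 40.0 against 36.2 in the comparison, 30.6 against 19.7 in replicate 1 and 31.5 against 23.0 in replicate 2. The oma-2 gene stayed below it, with 30.9 in the comparison and 16.7 in replicate 1.

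At mex-5 the replicates differed in what they list. Replicate 1 had 5 ranked summits in the region, the highest 33.5 with its summit 192 bp upstream. The ranked list of replicate 2, as used here, held none, and none from its summit at 13349843 to that at 13371356 on chromosome IV, a run of 21513 bp. Of the 45718 runs between neighbouring summits in that list, 199 were as long, and the median run was 1196 bp. The ranked pooled list held 17 summits within the same run. The comparison list was likewise empty over 19678 bp there. The mex-5 gene therefore has no value in the replicate columns, and the pooled peak of 73.4 has no value from replicate 2. Why these lists are empty there was not tested. Its close relative mex-6 had ranked peaks in both replicates.

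The replicates differed in peak height by gene. In the comparison list, 61 summits lay in the regions of 9 members, each with a signal value in 2 replicate columns. The first column equalled a value of the replicate 1 ranked list for 44 of the 61 (within 0.0001) and the second a value of the replicate 2 list for 29, with no match the other way round. Over the highest peak of each of the 9 members, the log2 ratio of the second to the first column ran from −1.27 (oma-1) to 1.61 (oma-2), with a median of 0.29. It was 0.88 for pos-1, 0.75 for spn-4, −0.06 for puf-5, −0.35 for gld-1, 0.29 for mex-6, −0.92 for mex-3 and 1.26 for the upstream peak of pie-1. The mex-3 ratio rests on the replicate 2 peak of 16.8, not on the one of 33.1 beside it. That of oma-2 rests on a replicate 1 peak with its summit 44 bp past the gene end. The pie-1 peak past the gene end, which the summit rule leaves out, had −0.81. The median was 0.14 over the 1021 conservative peaks and −0.05 over all 77086 ranked peaks. The second column was the higher in 5 of the 9 members, in 650 of the 1021 conservative peaks and in 36831 of the 77086 ranked peaks. The members thus had no common direction.

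Whether the gene end or the upstream peak was the higher also varied between replicates. For puf-5 the gene-end peak had 5.30 times the signal value of the highest upstream peak in replicate 1 and 3.30 times in replicate 2, for spn-4 1.09 and 1.26 times, and for mex-6 1.23 and 1.19 times. These 3 genes had the higher peak at the end in both. For pos-1 the ratio was 0.958 in replicate 1 and 2.00 in replicate 2, and for gld-1 1.32 and 0.979, so that the order turned between the replicates. For mex-3 it was 1.86 in replicate 1 and 0.874 in replicate 2 over the last 250 bp. There the turn rests on the window: the highest mex-3 peak of replicate 2, with 33.1, lay in the 3' UTR 254 bp before the end, and it was higher than the upstream peak of 19.2. For pie-1 it was 3.93 in replicate 1, and replicate 2 had no summit in the last 250 bp of the gene.

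**Figure D4:**
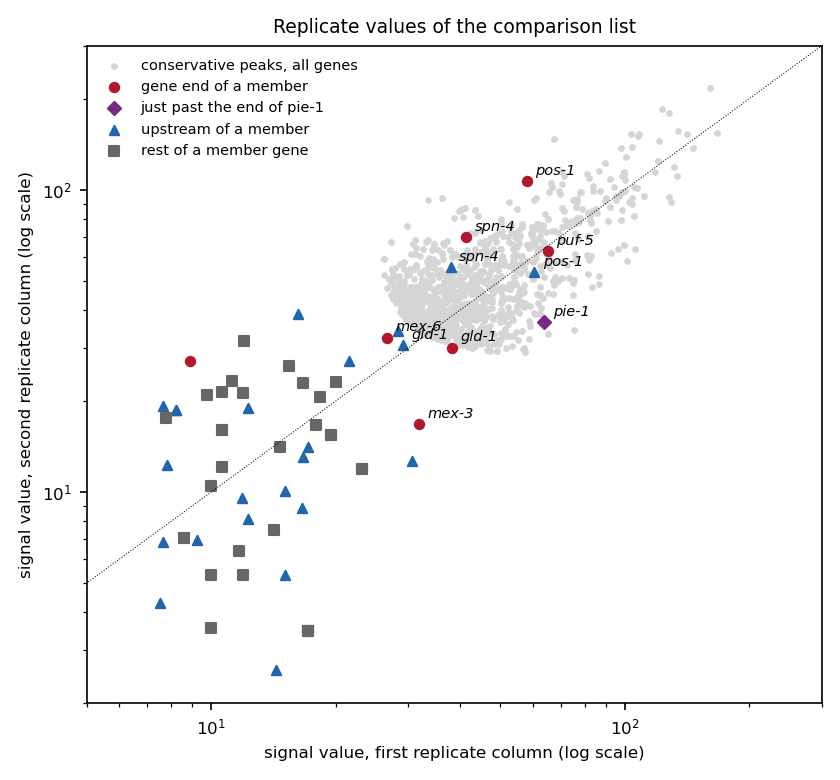
Signal value in the first (x axis) and second (y axis) replicate column of the comparison list, both on log scales, for all conservative peaks (grey) and for the peaks of the members by place (colours); the dotted line marks equal values. The pos-1 gene-end peak (58.0 and 107) and the puf-5 one (65.2 and 62.6) lie among the tall conservative peaks, the mex-3 one (31.9 and 16.8) below them.

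Other genes of maternal RNA control were set beside these 10 in 3 lists. Of 34 other germline and maternal RNA regulators, 8 had a conservative summit in the gene region, against 5.29% of all coding genes, 6 in the promoter window, against 2.88%, and 1 in the last 250 bp, against 0.836%. The highest were at atx-2 on III, an ataxin-2 homologue (167, its summit 54 bp upstream), puf-3 on IV (134), larp-1 on III (120, 673 bp upstream) and mex-1 on II (111, 142 bp upstream), the last for another CCCH protein of the early embryo. Some of these summits also lay in the start window of another gene. That of atx-2 was 784 bp upstream of ecps-1, that of larp-1 316 bp upstream of wip-1 and that of mex-1 951 bp upstream of W03C9.5. The puf-3 gene, close kin of other Pumilio genes, was the one with a gene-end peak. Its summit lay 26 bp before the end, and a second peak of 85.6 lay 216 bp upstream, also in the start window of afmd-2.

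Of 18 genes that act on the regulators at the oocyte-to-embryo transition, 4 had a conservative summit in the region, against 5.29% of coding genes, and 1 in the last 250 bp, against 0.836%. These were egg-5 on I (129.5, shared with the start of the spliced leader gene sls-2.4), egg-4 on I (107), zif-1 on III (92.7) and mbk-2 on IV (83.7). The zif-1 gene, whose product directs PIE-1 and other CCCH proteins to destruction, had its summit 11 bp before its end. MBK-2 is a kinase that marks OMA-1 for destruction, and the summit at its gene lay in the 3' UTR, 463 bp before the end. Of 13 genes whose mRNAs the regulators are known to bind or control, 4 had a conservative summit in the region and 2 in the last 250 bp, against the same shares of coding genes. They were neg-1 on V (105, 42 bp before the end), zif-1, which is in both lists, lin-41 on I (91.3, in the 3' UTR 768 bp before the end) and rme-2 on IV (68.6, in a coding exon). The lin-41 gene is also among the 34 other RNA regulators, where the same peak was counted.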

How the data were processed

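Chromatin immunoprecipitation was carried out by the submitters on 2 biological replicates of 1 group. The authors deposited 8 peak lists on ce11, per the labels and the file listings. The sources used here do not give the aligner, the peak caller or the control. The deposited signal value is the authors' peak height, of unstated scale, the deposited score rises as IDR falls, and the −log10 IDR is the global one that the authors deposited in the ranked lists. Of 120 columns, 66 were not used. The 10 genes, the lists of other genes and the gene-end window were chosen with earlier results of these data known. All 10 members are named, as are genes starting near their upstream summits and, per list of other genes, the 4 with the highest conservative peaks; neighbours of gene ends were named after their values were seen. Summits were assigned to genes of Ensembl release 115 (WBcel235) on the 6 nuclear chromosomes with Python 3.11.15, numpy 2.4.6 and pandas 2.3.3, as interval counts tested on simulated summits at known places. No test between groups was possible, and counts of genes with a summit are set beside the share of all coding genes treated alike. Alternatives changed the upstream extent, windows, lists, overlap rule, IDR and background.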

Additional observations from a re-analysis of the deposited data

How the results depend on the processing

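The count of members with a conservative summit in the gene region was 6 in the pooled list, and 3 to 4 in the lists of single replicates. Their count in the promoter window was 1 to 2 in single replicates. The share of coding genes with a summit in the gene region was 4.27% with 1000 bp upstream, 3.71% with 500 bp, 6.26% when any overlap of the peak counted, 4.84% in the pooled list, 2.22% at a −log10 IDR of 3 or more, 3.39% over all nuclear genes, and 2.20% to 2.46% in single replicates. For the promoter window it was 2.12% with 500 bp upstream to 100 bp downstream, 4.12% with 2000 bp to 500 bp, 2.60% in the pooled list, 2.20% over all nuclear genes, and 1.19% to 1.41% in single replicates. Windows at the gene end were chosen after the data were seen. There 5 members had a summit in the pooled list, 3 to 4 in single replicates, 4 within 200 bp either side of the end or with any overlap, 3 in the last 500 bp or at the stricter IDR, and 2 (pos-1 and spn-4) in the last 100 bp. The share of coding genes was 2.26% within 200 bp either side of the end, 0.996% in the last 500 bp, 0.451% in the last 100 bp, 2.09% with any overlap, 0.280% at the stricter IDR, and 0.330% to 0.355% in single replicates. With any overlap counted, pie-1 had a highest signal value of 104.5 in place of 50.1. Read depth is unknown, so a peak's counting error is not given. No paired analysis was possible because the study has 1 group.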

Other observations

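Y79H2A.3, the gene of the precipitated protein, had 2 conservative peaks inside the gene and none in its promoter window. One, of 84.8, lay in an intron 13446 bp past the start and the other, of 81.4, in a coding exon 2112 bp past it. The following genes were chosen after their values were seen. Of the other genes of maternal RNA control, puf-11 on IV (73.2, 244 bp upstream), car-1 on I (99.0, 1574 bp upstream) and ifet-1 on III (93.6, 475 bp upstream) had a conservative peak upstream. The ifet-1 summit also lay in the start windows of rps-1, F56F3.10 and F56F3.11. That of puf-11 lay in the start window of a pseudogene, WBGene00044752. In the pooled list but not in the conservative one, cye-1 on I (76.8), pal-1 on III (70.1, in an intron) and puf-12 on II (64.4) had a peak in the gene region. The cye-1 summit lay 66 bp upstream of pqn-21.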
